A study of Mus musculus with 25 samples.

Results

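Ier2, Ier3, Ier5, Ier5l, Btg1, Btg2, Zfp36, Zfp36l1, Zfp36l2 and Csrnp1 belong to the rapid-response genes, whose transcripts climb within minutes of a stimulus and decay soon after. These 10 genes were taken by symbol from a table of 47069 genes, each had 1 row, and all 10 passed the filter on low values. The tissue came from 25 hpg/hpg mice, in which both copies of the gonadotropin-releasing hormone (GnRH) gene carry a deletion, so that the animals lack the hormone. All groups, controls included, carried that genotype, and every animal gave 1 polyadenylated RNA library of its whole pituitary. The groups were 6 females given GnRH (animals 6 to 11), 5 females given placebo (animals 1 to 5), 8 males given GnRH (animals 18 to 25) and 6 males given placebo (animals 12 to 17). GnRH animals received 1 µg into the peritoneum each day for 10 days and placebo animals received saline, and tissue was taken 1 h after the last dose. No group received a single injection or was killed at a later time, so the last dose and the repeated dosing cannot be told apart, and no label gives the animals' ages. The title of the series concerns ATF3, a transcription factor, in the production of follicle-stimulating hormone.

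The families act at different steps. BTG1 and BTG2 are antiproliferative adaptors that bind the CNOT deadenylase, the complex that shortens poly(A) tails. ZFP36 (tristetraprolin) and its relatives ZFP36L1 and ZFP36L2 bind AU-rich elements in the 3′ UTR of short-lived mRNAs and bring the same deadenylase to them. IER2, IER5 and IER5L share a conserved N-terminal region and IER5 is known as a cofactor of heat shock factor 1 with protein phosphatase 2A, while IER3 is an unrelated small regulator of survival and ERK signalling. CSRNP1 is a nuclear protein first described as induced by AXIN1. In gonadotropes, the pituitary cells that carry the GnRH receptor, GnRH is known to activate ERK and calcium signalling, which drive rapid-response genes in many cell types.

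The promoters of the members the results turn on are shown first, as 300-base windows around the start site from RefSeq (GRCm38.p6, the same build as mm10), 5′ to 3′ on the gene's strand. Btg1 and Ier5l are shown because they passed the test, and Btg2 and Zfp36 because they were among the 3 genes with the widest spread between animals and hold the rarest of the motifs searched. Capitals mark matches on either strand to any of 6 motifs. The full cAMP response element is TGACGTCA, and its shorter form TGACG also lies inside it. The element for AP-1 is written TGANTCA, and the element for the EGR factors is written GCGGGGGCG. The other 2 are the TATA box, TATAAA, and the CArG box of serum response factor.
Btg1 promoter, chr10:96616751-96617050, plus strand: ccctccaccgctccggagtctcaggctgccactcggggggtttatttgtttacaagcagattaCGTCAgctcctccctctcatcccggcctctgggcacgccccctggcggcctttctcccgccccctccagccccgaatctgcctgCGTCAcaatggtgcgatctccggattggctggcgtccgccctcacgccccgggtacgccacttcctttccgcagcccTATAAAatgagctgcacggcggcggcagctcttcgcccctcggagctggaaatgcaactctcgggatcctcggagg
Ier5l promoter, chr2:30474150-30474449, minus strand: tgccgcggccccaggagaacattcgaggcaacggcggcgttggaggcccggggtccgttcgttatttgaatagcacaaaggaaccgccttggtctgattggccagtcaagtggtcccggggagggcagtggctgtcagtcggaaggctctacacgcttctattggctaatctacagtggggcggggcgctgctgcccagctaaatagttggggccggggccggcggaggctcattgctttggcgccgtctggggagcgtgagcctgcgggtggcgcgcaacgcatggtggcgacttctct
Btg2 promoter, chr1:134079106-134079405, minus strand: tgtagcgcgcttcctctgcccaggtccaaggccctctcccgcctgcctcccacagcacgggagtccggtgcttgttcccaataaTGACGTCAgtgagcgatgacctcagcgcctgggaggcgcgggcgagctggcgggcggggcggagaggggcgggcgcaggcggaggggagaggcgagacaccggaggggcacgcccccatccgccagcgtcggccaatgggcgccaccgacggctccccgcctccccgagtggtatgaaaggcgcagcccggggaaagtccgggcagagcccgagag
Zfp36 promoter, chr7:28379179-28379478, minus strand: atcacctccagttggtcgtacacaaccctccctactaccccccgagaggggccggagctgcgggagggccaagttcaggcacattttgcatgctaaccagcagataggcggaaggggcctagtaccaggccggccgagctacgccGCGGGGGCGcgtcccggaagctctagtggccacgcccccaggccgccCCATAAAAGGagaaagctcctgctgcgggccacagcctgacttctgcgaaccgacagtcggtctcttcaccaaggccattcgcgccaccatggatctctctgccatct

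Windows were found for 8 of the 10 members, all but Ier2 and Zfp36l2. The CArG box was found in the Zfp36 window only, as CCATAAAAGG beginning 58 bases before the start site, against 1.63% of 32851 mouse windows of the same length. GENCODE M21 extends Zfp36 to position 28380253, upstream of this window. The same window held GCGGGGGCG at position -105, a motif present in 2.91% of windows. TGACGTCA was found in the Btg2 window only, at position -166, against 1.79% of windows. Btg1 held TGACG on the opposite strand at -187 and -103 and TATAAA at -26. TGACG was present in 3 of the 8 windows (Btg1, Btg2 and Csrnp1) against 20.8% of all windows, and TATAAA in 2 (Btg1 and Zfp36l1) against 13.6%. TGANTCA was found in Zfp36l1 only, against 7.81% of windows. The Ier5l window held none of these motifs and matched only GGGCGG, the GC box, left in lower case, which can share letters with GCGGGGGCG and was present in 6 of the 8 windows against 35.7% of all. The 8 windows thus shared no motif, and a match is a string of letters, not a bound site.

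The gene models of the members, from GENCODE M21 on GRCm38, were compact. Ier2, Ier5 and Ier5l were single-exon genes, and 9 of the 10 members had 2 exons or fewer (90%), against 8.18% of the 15054 protein-coding genes tested. Csrnp1, with 4 exons over 13496 bases, was the exception and also the one member that spanned 10000 bases or more. The heptamer TATTTAT, the core of the sites that ZFP36 proteins bind, was present in the 3′ UTR of 6 of the 10 members, against 26.8% of the protein-coding genes tested. The median 3′ UTR was longer in the members, at 1538 bases, than in the protein-coding genes tested, at 930. Ier3 held 4 heptamers in 613 bases, Zfp36 held 3 in 774, Zfp36l1 held 3 in 1835, Zfp36l2 held 3 in 1822, and Btg2 and Csrnp1 held 1 each. The 3 ZFP36 genes thus carried in their own mRNAs the motif that their proteins recognise. Ier2, Ier5, Ier5l and Btg1 held none, although the 3′ UTR of Btg1 was the longest of the 10, at 4166 bases. The heptamer and these features of the gene models were chosen after values had been seen. A 30-base window around 1 heptamer of each of the 6 genes is shown with the heptamer in capitals, to let the contexts be compared.
Ier3: tgtctaattaaTATTTATgTATTTATgtat
Btg2: aaatgaagagcTATTTATacatgttttttt
Zfp36: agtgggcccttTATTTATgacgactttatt
Zfp36l1: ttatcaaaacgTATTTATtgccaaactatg
Zfp36l2: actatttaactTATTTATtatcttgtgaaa
Csrnp1: cactctgaattTATTTATttttttatgttt

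Values are regularized log2 values as deposited, which are shrunken towards each gene's mean, so differences are understated where expression is low, and folds are computed on the shrunken scale. Of the 19141 genes tested with limma, 19 were called higher and 0 lower with GnRH in females, 86 higher and 9 lower in males, and 272 higher and 55 lower in the effect averaged over the sexes, at a Benjamini-Hochberg adjusted p under 0.05. Gh, Prl and Pomc, genes of pituitary hormones, had lowest values over the 25 animals of 21.09, 16.59 and 17.28. Male GnRH animals 18 and 21 stood apart from the other males in rapid-response genes. Their mean over 51 other rapid-response genes was 9.88 and 9.91, against 8.96 to 9.31 in the other 6 GnRH males. Values without these 2 animals are therefore given beside the male results of the 10 genes and beside the gene lists whose values they moved. The 2 animals stood out by high values in the class of genes studied here, and no placebo animal was left out with them. Leaving them out therefore lowers the male estimates of genes that were high in them, and is not an independent check.

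Among the 10 genes, Btg1 and Ier5l were higher with GnRH in the effect averaged over the sexes, and Btg1 was also higher in males taken alone. The other 8 genes passed the threshold in no comparison. Of the 10, 2 passed in the averaged effect against a background of 1.42% of all genes tested called higher, 1 in males against 0.449%, and 0 in females against 0.0993%. Estimates were above 0 for 8 of the 10 genes in each sex. The median difference of the 10 was 0.13 in females, 0.26 in males and 0.19 averaged, beside 0.00025, -0.0022 and -0.00088 over all genes tested. The median of the 10 without animals 18 and 21 was 0.14 in males and 0.15 averaged. The genes that passed then numbered 0 in males, against 0.178% of all genes tested called higher, and 2 averaged, against 1.12%. At an unadjusted p under 0.05, 1 gene was higher in females (Btg1), against 5.11% of all genes tested. In males 4 were higher (Btg1, Ier5l, Zfp36 and Csrnp1) against 4.17%, and in the averaged effect 5 (these 4 and Ier5) against 6.51%. The male count was 3 (Btg1, Ier5l and Zfp36) without animals 18 and 21, against 3.31%, and the averaged count was again 5, against 6.17%. None of the 10 was lower at that level in any of these comparisons. In whole tissue, a change in the number of cells of a type and a change of RNA per cell cannot be told apart.

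**Figure D1:**
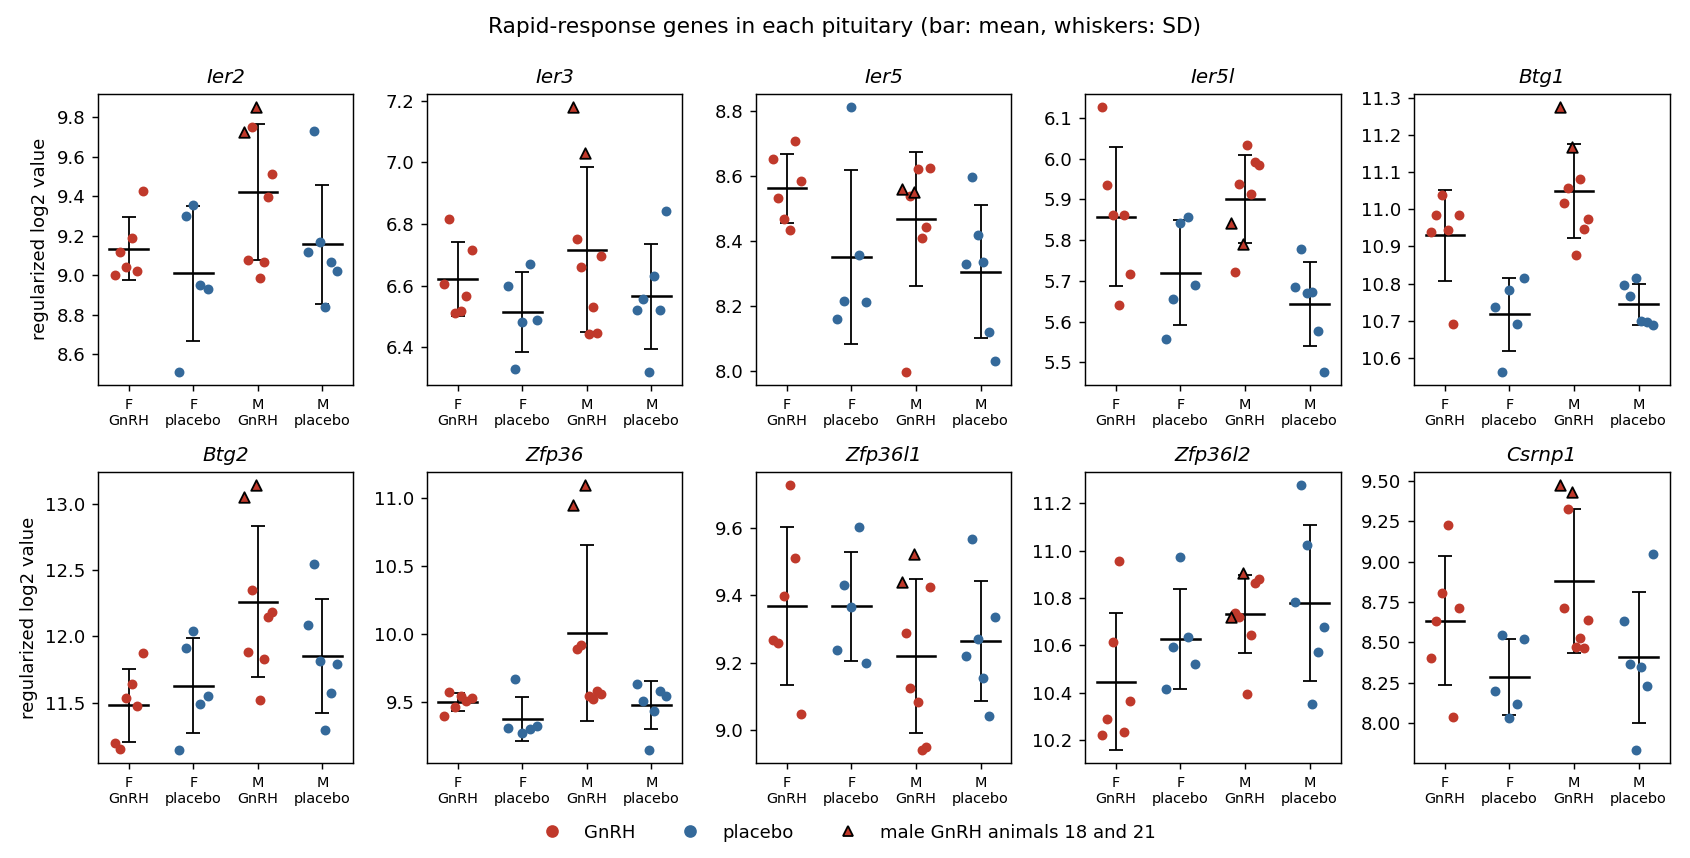
Regularized log2 value of each of the 10 genes (vertical axis, its own range per gene) in every pituitary, by sex (F, M) and treatment, with the group mean as a bar and the SD as whiskers. For Btg1 the 8 GnRH males, with a lowest value of 10.88, lie above the 6 placebo males, with a highest value of 10.81, and triangles mark male GnRH animals 18 and 21, which are the highest 2 of all 25 animals for Btg1, Zfp36, Btg2, Csrnp1 and Ier3.

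Btg1, the adaptor whose partners include the CNOT deadenylase subunits CNOT7 and CNOT8, showed the clearest separation. In males it had a lowest value of 10.88, a median of 11.04 and a highest value of 11.28 with GnRH, against a lowest value of 10.69, a median of 10.73 and a highest value of 10.81 with placebo. The male groups did not overlap, which held for 0.345% of all genes tested with GnRH above placebo. The log2 difference in males was 0.31 (SE 0.058, limma adjusted p = 0.0087), a 1.24-fold difference seen in 8 of 8 animals. In females the GnRH group had a lowest value of 10.69, a median of 10.97 and a highest value of 11.04, against 10.74, 10.56, 10.78, 10.69 and 10.82 in placebo animals 1 to 5. Of the 6 GnRH females, 5 lay above every placebo female, and animal 10, at 10.69, lay among them. The groups without overlap in females, GnRH above placebo, made up 0.528% of all genes tested, and none of the 10 members was among them. The female difference of 0.21 (SE 0.065) had an unadjusted p of 0.0030 and did not pass after adjustment over all genes (adjusted p = 0.252). The averaged difference was 0.26 (SE 0.044, 95% interval 0.17 to 0.35, limma adjusted p = 0.00093), which ranked Btg1 at position 49 of 19141 genes by p. Animals 18 and 21, at 11.28 and 11.17, were the highest 2 of all 25 animals for Btg1, and the highest of the others was 11.08. With animals 18 and 21 left out, the male difference was 0.25 and no longer passed (limma adjusted p = 0.0592), while the averaged difference of 0.23 did (limma adjusted p = 0.0017).

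Btg2, the p53- and growth factor-induced relative of Btg1, did not pass the test and had the widest spread of the 10 genes. In males its values had a lowest of 11.52, a median of 12.16 and a highest of 13.14 with GnRH, against a lowest of 11.30, a median of 11.80 and a highest of 12.55 with placebo. Animals 18 and 21, at 13.05 and 13.14, were the only GnRH males above every placebo male. In females the GnRH values had a lowest of 11.15, a median of 11.51 and a highest of 11.87, against 11.14, 11.92, 12.04, 11.49 and 11.55 in placebo animals 1 to 5. The estimates pointed in opposite directions in the sexes, 0.41 in males (95% interval -0.02 to 0.84) and -0.15 in females (95% interval -0.63 to 0.34). The male minus female difference of the effects was 0.56 (95% interval -0.09 to 1.21, unadjusted p = 0.0907, limma adjusted p = 0.999). Btg2 differed, with animals 18 and 21 left out, by 0.13 in males and by -0.01 averaged over the sexes.

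Zfp36 encodes tristetraprolin, itself an early response to serum and insulin in cultured cells. In males it had a lowest value of 9.53, a median of 9.73 and a highest value of 11.09 with GnRH, against a lowest value of 9.15, a median of 9.53 and a highest value of 9.63 with placebo. The GnRH males were uneven: animals 18 and 21 had 10.95 and 11.09, animals 19 and 20 had 9.89 and 9.92, and the other 4 lay between 9.53 and 9.58, within the placebo range. In females the GnRH values had a lowest of 9.40, a median of 9.52 and a highest of 9.58, against 9.31, 9.67, 9.28, 9.30 and 9.33 in placebo animals 1 to 5. All 6 GnRH females lay above 4 of the 5 placebo females and below placebo animal 2. The difference was 0.53 in males (SE 0.19, unadjusted p = 0.0086, limma adjusted p = 0.382) and 0.13 in females (SE 0.21, limma adjusted p = 0.866). Leaving out animals 18 and 21 brought the male estimate to 0.19 (limma unadjusted p = 0.030, adjusted p = 0.802). The averaged estimate was 0.33 with them (limma unadjusted p = 0.027, adjusted p = 0.326). Without them it was 0.16, with a lower p (limma unadjusted p = 0.015, adjusted p = 0.280).

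Zfp36l1 and Zfp36l2, the relatives known in mice for roles in vascular and blood development and in the oocyte, did not pass the test in any comparison. Zfp36l1 differed by -0.04 in males (95% interval -0.25 to 0.17) and by 0.0011 in females (95% interval -0.24 to 0.24). Its GnRH range of 8.94 to 9.52 in males enclosed most of the placebo range of 9.04 to 9.57, and in females the GnRH range of 9.05 to 9.73 enclosed all 5 placebo animals. Zfp36l2 differed by -0.05 in males (95% interval -0.30 to 0.20) and by -0.18 in females (95% interval -0.46 to 0.10). In females 4 of 6 GnRH animals lay below every placebo female, with GnRH animal 9 at 10.96. The male difference of Btg1, 0.31, lay above both male intervals, whereas its female difference, 0.21, lay inside the female interval of Zfp36l1 and above that of Zfp36l2. The male estimates were -0.13 for Zfp36l1 and -0.07 for Zfp36l2 when animals 18 and 21 were left out. Gm26669, a lincRNA gene on the opposite strand, overlaps 4967 bases of Zfp36l1, and genes annotated as antisense overlap Zfp36 and Zfp36l2. No source used here gives the strand setting of the counting, so reads of the overlapping genes may not have been separated. Gm26669 had a mean value of 2.56, under the filter on low values, beside 9.30 for Zfp36l1. The part of shared reads in the values of these genes was not tested.

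Ier5l, an intronless relative of Ier5 with few described functions, was the second gene to pass. In males it had a lowest value of 5.72, a median of 5.92 and a highest value of 6.03 with GnRH, against a lowest value of 5.48, a median of 5.67 and a highest value of 5.78 with placebo. All but 1 of the 8 GnRH males lay above every placebo male. In females the GnRH values had a lowest of 5.64, a median of 5.86 and a highest of 6.13, against 5.56, 5.65, 5.84, 5.86 and 5.69 in placebo animals 1 to 5, and 4 of the 6 lay above every placebo female. The difference was 0.26 in males (SE 0.068, limma adjusted p = 0.102) and 0.14 in females (SE 0.077, limma adjusted p = 0.579). Averaged over the sexes it was 0.20 (SE 0.051, 95% interval 0.09 to 0.30, limma adjusted p = 0.0420), near the threshold. The averaged call was lost in 16 of the 25 fits that each left out 1 animal, with adjusted p up to 0.0960. Animals 18 and 21 were not high for Ier5l, at 5.84 and 5.79, and without them the difference was 0.29 in males (limma adjusted p = 0.141) and 0.21 averaged (limma adjusted p = 0.0432).

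Ier5, which is induced by radiation and heat, averaged 0.19 higher (SE 0.076, unadjusted p = 0.020, limma adjusted p = 0.282), with 0.16 in males and 0.21 in females. All 6 GnRH females, between 8.43 and 8.71, lay above 4 of the placebo females at 8.16, 8.21, 8.22 and 8.36, while placebo animal 3 was higher than any of them at 8.81. In males, 7 of 8 GnRH animals lay between 8.41 and 8.63 and animal 19 was at 8.00, against 8.03 to 8.60 with placebo. In females the groups overlapped through that 1 placebo animal, and in males 2 of the 8 GnRH animals lay above every placebo male and animal 19 lay below every one. The male difference of Ier5 was 0.13 when animals 18 and 21 were left out.

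Ier2, a serum-induced nuclear protein, differed by 0.26 in males (95% interval -0.03 to 0.56) and 0.12 in females (95% interval -0.21 to 0.46). In males it had a lowest value of 8.99, a median of 9.45 and a highest value of 9.85 with GnRH, against a lowest value of 8.84, a median of 9.09 and a highest value of 9.73 with placebo. The highest placebo value belonged to animal 13, and the next was 9.17. The male difference of Ier2 was 0.14 when animals 18 and 21 were left out. Ier3 differed by 0.15 in males (95% interval -0.05 to 0.35) and 0.11 in females (95% interval -0.12 to 0.33). Its highest GnRH males were animals 18 and 21, at 7.18 and 7.03, and without them the male difference was 0.02. Neither gene separated its groups in either sex.

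Csrnp1 had the largest averaged estimate of the 10 genes and did not pass. In males it had a lowest value of 8.47, a median of 8.68 and a highest value of 9.47 with GnRH, against a lowest value of 7.83, a median of 8.36 and a highest value of 9.04 with placebo. All 8 GnRH males lay above the placebo mean of 8.41, and 3 of them, animals 18, 20 and 21, lay above every placebo male. In females the GnRH values had a lowest of 8.04, a median of 8.67 and a highest of 9.22, against 8.20, 8.55, 8.03, 8.12 and 8.52 in placebo animals 1 to 5. The averaged difference was 0.41 (SE 0.14, 95% interval 0.12 to 0.70), with an unadjusted p of 0.0073 and a limma adjusted p of 0.179. Without animals 18 and 21 it was 0.32, and 0.28 in males alone. Csrnp1 lies wholly inside the annotated span of Cx3cr1, a microglial and macrophage receptor gene on the same strand, and no source used here says how the authors assigned reads there. Cx3cr1 itself had an averaged difference of -0.10 (limma adjusted p = 0.62), and the part of shared reads in the values of Csrnp1 was not tested.

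**Figure D2:**
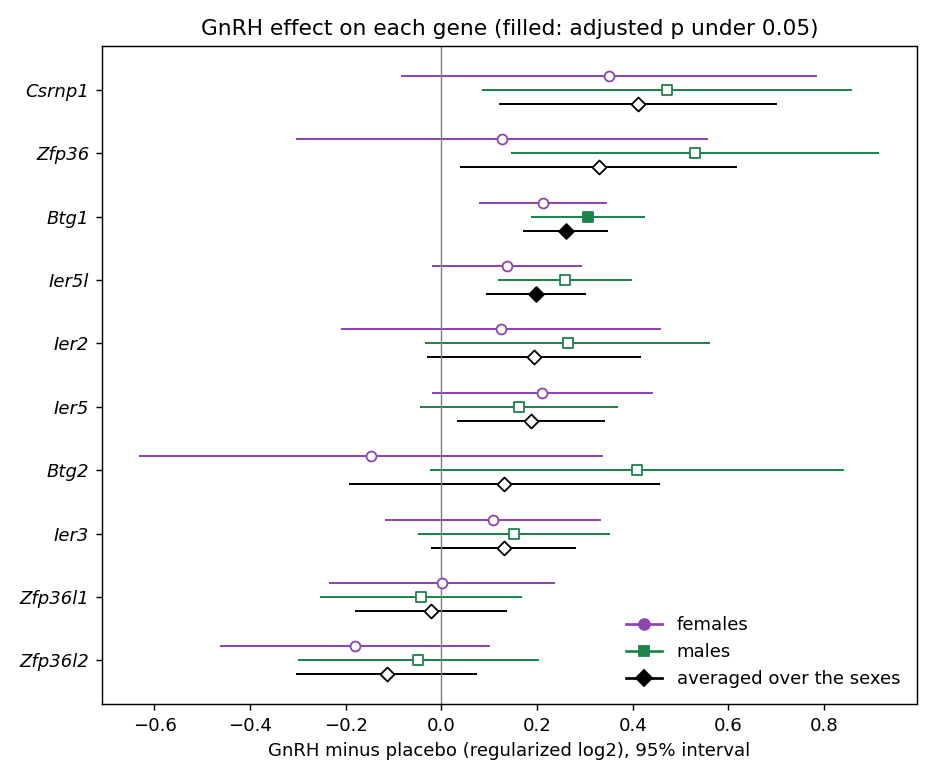
GnRH minus placebo difference in regularized log2 value (horizontal axis) with its 95% interval for each of the 10 genes, in females (circles), males (squares) and averaged over the sexes (diamonds), with filled symbols for an adjusted p under 0.05. The filled symbols are Btg1 in males at 0.31 and, averaged, Btg1 at 0.26 and Ier5l at 0.20, and the intervals of Csrnp1, Zfp36 and Btg2 are the widest.

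The 2 genes that passed had the narrowest spread between animals, not the largest estimates. The SD within groups was 0.108 for Btg1 and 0.128 for Ier5l, close to the median SD of 0.109 and 0.122 over the 500 tested genes nearest to each in mean value. It was 0.441 for Btg2, 0.392 for Csrnp1, 0.391 for Zfp36 and 0.300 for Ier2, where the 500 nearest genes had median SDs between 0.110 and 0.130. The averaged estimates of Csrnp1, at 0.41, and Zfp36, at 0.33, exceeded that of Btg1, at 0.26, with standard errors over 3 times as large (0.142 and 0.141, against 0.044). An interval from 0.12 to 0.70 for Csrnp1 and from 0.04 to 0.62 for Zfp36 includes both a difference the size of that of Btg1 and a larger one. Without animals 18 and 21 the SD of Zfp36 was 0.154 and its averaged difference 0.16, and the SDs of Btg1 and Ier5l, at 0.091 and 0.131, were still the lowest of the 10.

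**Figure D3:**
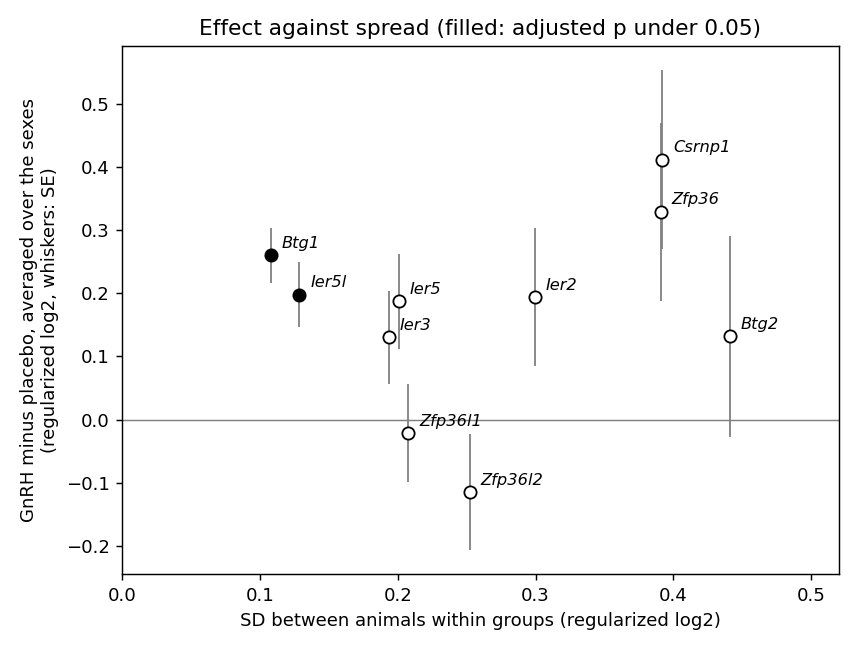
Averaged GnRH minus placebo difference (vertical axis, regularized log2, whiskers are the SE) against the SD between animals within groups (horizontal axis, regularized log2) for the 10 genes. The filled points, Btg1 and Ier5l, have the lowest SDs, 0.108 and 0.128, while Csrnp1 and Zfp36 have larger differences at SDs of 0.392 and 0.391.

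None of the 10 genes passed the test between the sexes. Under placebo, males minus females ranged from -0.10 for Zfp36l1 to 0.22 for Btg2, with 0 of 10 called against 0.047% of all genes tested, and 0 of 10 at an unadjusted p under 0.05 against 3.07%. For the male minus female difference of the GnRH effect, 0 of 10 were called against 0% of all genes tested, and 0 of 10 at an unadjusted p under 0.05 against 2.76%. The estimate for Btg1 was 0.09 (95% interval -0.09 to 0.27) and for Ier5l 0.12 (95% interval -0.09 to 0.33). A call of Btg1 in males and not in females is therefore not a shown difference between the sexes.

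Within groups, some of the 10 genes varied together from animal to animal. These correlations are taken over the deviations of 25 animals from their group means and are descriptions, since all genes share the libraries and their scaling. The pair most alike was Ier2 and Btg2, with Pearson's r of 0.90 (Spearman's rho 0.84), and r was 0.90 over the 23 animals without 18 and 21. Zfp36 had r of 0.73 with Ier3, 0.70 with Btg2 and 0.68 with Csrnp1, but these became 0.29, 0.28 and 0.62 without animals 18 and 21. The size of the first 2 thus depended in large part on those animals (Spearman's rho over all 25 was 0.47 and 0.56). Ier5 and Ier5l had r of 0.65 (0.72 without the 2 animals), and Ier5l had r of -0.51 with Csrnp1. Btg1 and Btg2, although relatives, had r of 0.47, which became 0.16 without animals 18 and 21.

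**Figure D4:**
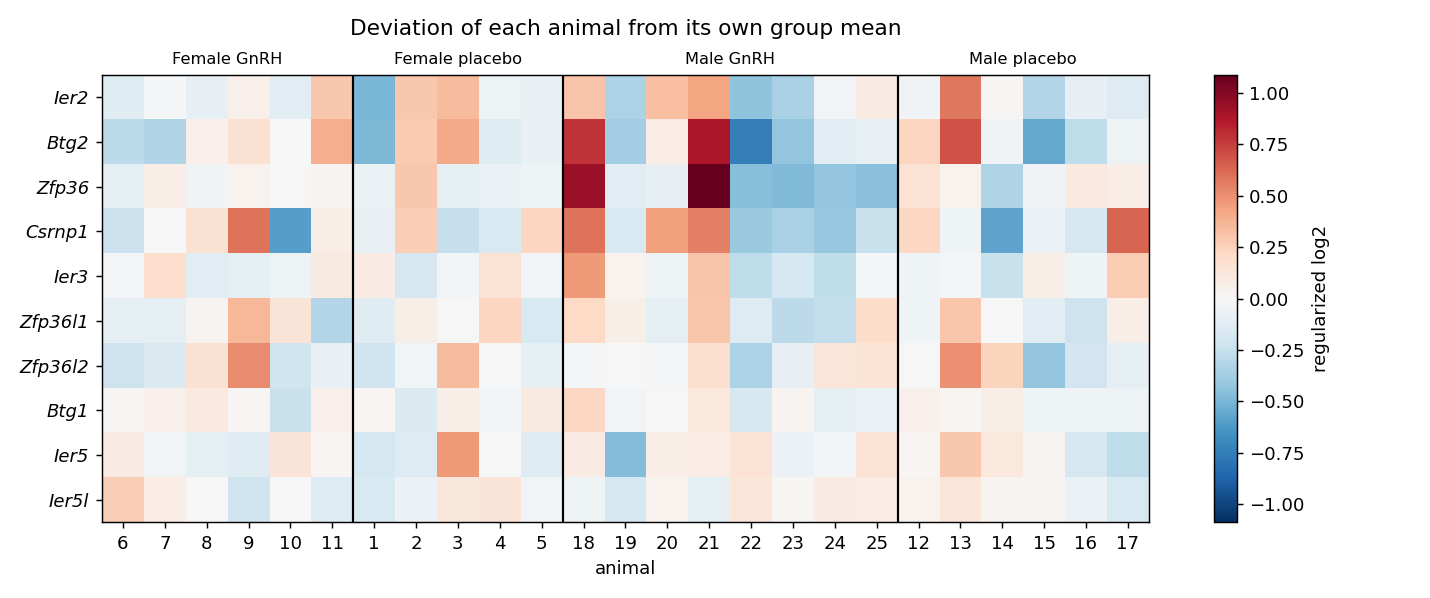
Deviation of each of the 25 animals (columns, by group and animal number) from its own group mean for each of the 10 genes (rows), in regularized log2 units by colour. Animals 18 and 21 have the strongest positive deviations for Zfp36 and Btg2, placebo male 13 is high for Ier2, Btg2 and Zfp36l2, and Btg1 deviates in the range of its small SD of 0.108, with animals 18 and 21 highest.

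Placed beside the other rapid-response genes, the 10 differed by degrees in how closely they varied with them. Against the mean of 51 other such genes, again as deviations over 25 animals, r was 0.92 for Zfp36, 0.83 for Csrnp1, 0.73 for Ier3, 0.72 for Btg2, 0.58 for Btg1 and 0.57 for Ier2. It was 0.43 for Zfp36l1, 0.16 for Zfp36l2, 0.05 for Ier5 and -0.29 for Ier5l. Without animals 18 and 21, r was 0.89 for Csrnp1, 0.66 for Zfp36, 0.42 for Ier2, 0.38 for Btg2, 0.34 for Ier3, 0.22 for Btg1 and 0.09 for Zfp36l1. It was then 0.13 for Zfp36l2, -0.17 for Ier5 and -0.18 for Ier5l. The size of r for Ier3, Btg2, Btg1 and Zfp36l1 over 25 animals thus depended in large part on animals 18 and 21. Spearman's rho over all 25, which uses ranks only, was 0.66 for Btg2, 0.49 for Ier3, 0.42 for Btg1 and 0.37 for Zfp36l1. Animals 18 and 21 were above their group mean for 8 and 9 of the 10 genes, and by 0.36 and 0.38 on average. Placebo male 13 was above its group mean for 8 genes and was the highest of its group for 6, so wide positive deviations were not restricted to GnRH animals.

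The genes most like each member over all genes tested, leaving out predicted genes, were ranked by r over the same 25 deviations. With so many genes and only 25 animals, the highest r can be large by chance, and no background was computed for it. Ier2 was most like Btg2 (0.90), Junb (0.86) and Egr1 (0.84), and Btg2 most like Ier2, Junb (0.86) and Ovca2 (0.83). Csrnp1 was most like Sik1 (0.90), Midn (0.87) and Tob2 (0.86), the last a relative of the BTG genes. Zfp36 was most like Cyr61 (0.93), Tgif1 (0.87) and Egr4 (0.86), and Ier3 most like Dusp5 (0.80), Klf4 (0.78) and Gem (0.77). Without animals 18 and 21, the values for Ier3 were 0.57, 0.56 and 0.54 in the same order, and that for Zfp36 and Egr4 became 0.13, whereas that for Csrnp1 and Sik1 was 0.88. No gene of the rapid-response list stood among the nearest 3 of the remaining 5 members. Btg1 was most like Hacl1 (0.84), Pfkfb3 (0.83) and Trp53inp1 (0.81), and Zfp36l1 most like Sema3f (0.85), Tmem200c (0.84) and Rfx4 (0.83). Zfp36l2 was most like Insm1 (0.87), Cited2 (0.86) and Gpr149 (0.82). Ier5 was most like Tnfsf13os (0.79), Lsm1 (0.77) and Nnmt (0.76), and Ier5l most like Cdca2 (0.81), Twist2 (0.76) and Syde1 (0.76).

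Of the 51 other rapid-response genes, 14 rose with GnRH in the averaged effect, against 1.42% of all genes tested. In males 4 rose, against 0.449%, and none fell in either comparison. In females 0 passed with limma and 15 were higher at an unadjusted p under 0.05, against 5.11% of all genes tested. The median difference of the 51 was 0.27 averaged, 0.42 in males and 0.21 in females, and 49, 50 and 45 of the 51 estimates were above 0. Leaving out animals 18 and 21 gave a median of 0.20 in males and 0.20 averaged. Then 0 passed in males, and 21 were higher there at an unadjusted p under 0.05, against 3.31% of all genes tested. In the same fit 12 passed averaged, against 1.12% called higher, and 2 in females, against 0.157%. Gadd45g, a growth-arrest gene, differed by 0.42 averaged (limma adjusted p = 0.00033), and Klf10, a zinc finger factor of the TGF-beta response, by 0.49 (limma adjusted p = 0.00070). Nr4a3, an orphan nuclear receptor, differed by 1.22 (limma adjusted p = 0.0011), and Atf3, the factor in the title of the series, by 2.08 (limma adjusted p = 0.00064). The averaged difference of Btg1, 0.26, was smaller than these, which belong to the listed genes with the smallest p. It was near the median of the 51, 0.27.

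Few listed partners of the 10 genes passed the test. Of all genes tested, 1.42% were called higher averaged and 0.449% in males. At an unadjusted p under 0.05, 6.51% were higher averaged and 4.17% in males. Without animals 18 and 21 that last share was 3.31%. Of the listed relatives, none of the 6 tested (Btg3, Tob1, Tob2, Csrnp2, Csrnp3 and Ier3ip1, the last a binding partner of IER3) passed in any GnRH comparison, and Btg4 and Zfp36l3 were under the filter. At an unadjusted p under 0.05, 1 of the 6 was higher in the averaged effect. None of the 30 genes of deadenylation and AU-rich element decay passed with limma (1 higher in the averaged effect at an unadjusted p under 0.05), with a median averaged difference of -0.01 and 11 of 30 above 0. None of 13 protein phosphatase 2A subunits passed, and 2 were higher and 2 lower in the averaged effect at an unadjusted p under 0.05. None of 13 genes of heat shock factor 1 and the heat shock response passed either, with a median difference of 0.23 in males and 0.02 in females, and 7 were higher in males at an unadjusted p under 0.05 (3, with a median of 0.16, without animals 18 and 21). At that level 4 of the 13 were higher averaged (2 without animals 18 and 21), and 1 was lower in females. Within placebo, 12 of the 13 estimates were lower in males than in females, with a median of -0.16. Among 16 kinases and 14-3-3 proteins that act on ZFP36 proteins, Mapk11, the p38 beta kinase, rose by 0.42 in males (SE 0.080, limma adjusted p = 0.0096) and 0.35 averaged (limma adjusted p = 0.0011), and without animals 18 and 21 the male value was 0.45 (limma adjusted p = 0.0157). Of the 16, 5 were higher in males at an unadjusted p under 0.05, and 5 higher and 1 lower averaged. Without animals 18 and 21 these counts were 3 in males, and 4 higher and 2 lower averaged. Of 17 cytokine and growth factor mRNAs known to be bound by ZFP36 proteins, 12 were tested. Vegfa, the vascular growth factor, rose by 0.47 in males (limma adjusted p = 0.0038; 0.44 and 0.0236 without animals 18 and 21) and 0.52 in females (limma adjusted p = 0.0144). Cdkn1a, the p21 cell cycle inhibitor, rose by 0.50 averaged (limma adjusted p = 0.0039), and the other 10 passed in neither sex nor averaged. Tnf, Il6, Cxcl1 and Cxcl2 were under the filter, and Csf2 was listed at 0 in all animals.

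Markers of other cell types were compared in the same animals, because BTG1 is abundant in lymphocytes and ZFP36 proteins are studied in macrophages. Of 13 lymphocyte and neutrophil markers, 9 were tested and 0 passed, and Cd3g, Cd8a, Nkg7 and Gzma were under the filter. The log2 of their summed level ranged from 8.35 to 8.55 in GnRH males and from 8.33 to 8.61 in placebo males, and from 8.42 to 8.71 in GnRH females and from 8.32 to 8.70 in placebo females. None of 10 macrophage markers and none of 6 blood transcripts passed either, and in the averaged effect 0 genes of these 3 lists were past an unadjusted p of 0.05. In males 0 were past it as well. In females 1 macrophage marker was higher at that level, and 1 lymphocyte or neutrophil marker was higher and 1 lower. The macrophage estimates leaned in opposite directions, with 8 of 10 above 0 in females (median 0.085) and 3 of 10 in males (median -0.049). Of 9 endothelial markers, 2 passed in the averaged effect, against 1.42% of all genes tested called higher. They were Emcn at 0.25 (limma adjusted p = 0.0029) and Plvap at 0.18 (limma adjusted p = 0.0238), and 9 of 9 estimates were above 0. The log2 summed level of the 9 ranged from 12.89 to 13.18 in GnRH males and from 12.85 to 12.91 in placebo males, and from 12.96 to 13.17 in GnRH females and from 12.85 to 12.99 in placebo females. All 9 passed the filter on low values, and their part in the differences of Btg1 and Ier5l was not tested. Of 10 gonadotrope markers, 4 rose and 3 fell in the averaged effect, against 1.42% of all genes tested called higher and 55 of 19141 called lower. Fshb was higher by 2.42, Spp1 by 0.95, Gnrhr by 0.66 and Lhb by 0.38. The differences of those that fell were -0.49 for Gata2, -0.38 for Nr5a1 and -0.30 for Foxl2. The log2 summed level of the 10 markers, in which the highest genes weigh most, ranged from 16.38 to 17.03 in GnRH males and from 16.18 to 16.95 in placebo males. In females it ranged from 16.51 to 16.94 with GnRH and from 16.27 to 16.62 with placebo. The mean of the log2 values of the 10 markers, in which each marker weighs alike, separated the groups in both sexes. The large differences of Fshb and Spp1 weigh heavily in that mean, while 3 of the 10 markers fell. Egr1, among the 10, is also on the rapid-response list. The separation without these genes was not tested. That mean ranged from 11.01 to 11.39 in GnRH males and from 10.64 to 10.83 in placebo males. In females the mean ranged from 10.99 to 11.31 with GnRH and from 10.69 to 10.81 with placebo. The part of the gonadotrope markers in the members' differences was not tested either. No marker passed among 11 of the other hormone cells, 9 of stem and folliculostellate cells, 8 of the posterior lobe and 9 of pericytes and fibroblasts, where 3, 1, 0 and 1 were past an unadjusted p of 0.05 in the averaged effect. Of 5 sex-linked genes, 4 were higher and 1 lower in placebo males than in placebo females, and 0 passed for GnRH, at an unadjusted p under 0.05 as well.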

How the data were processed

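Polyadenylated RNA of 25 pituitaries was sequenced. Reads were handled with bcl2fastq, STAR and featureCounts on build mm10, per the submitters' processing notes. No source used here gives versions, strand setting or annotation. The authors deposited regularized log2 values, scaled between libraries and shrunken, with no counts, so the depth per library is unknown and counting error could not be estimated. Per the design text, the raw data can no longer be reached. The labels place 8 animals in the male GnRH group, where the design text gives at most 7, and the labels were followed. Animals carry their own number and no batch or litter is given.

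Of 47069 genes, 13765 were at 0 in all 25 libraries, and tests were run on the 19141 whose mean was at least 3. A model with 1 mean per group was fitted to all 25 libraries (21 residual degrees of freedom) with limma 3.58.1 in R 4.3.3, with a variance trend on the mean. The contrasts, 5 in number, compared GnRH with placebo in females, in males and averaged; the others were the male minus female GnRH effect, and males against females within placebo. Tests were two-sided, with Benjamini-Hochberg adjustment over all genes tested and a threshold of 0.05. Correlations between any 2 libraries lay between 0.992 and 0.998. The alternatives tried were other filters on low values, scalings, variance models and library weights, each sex fitted alone, and fits without single animals or without male GnRH animals 18 and 21.

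The 10 members, the 17 gene lists (235 genes, 224 tested) and the contrasts were chosen with earlier results of these data known. Named were the 10 members, up to 4 genes per list past the threshold in a GnRH contrast by smallest averaged p, Atf3 and Fshb, and the 3 genes most like each member. Cx3cr1, Lhb, Nr5a1, Foxl2, the overlapping genes, genes under the filter and the relatives were named outside that rule after values were seen. Promoters came from RefSeq and gene models and 3′ UTRs from GENCODE M21, using the transcript with the longest coding sequence. Protein sequences were not analysed here.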

Additional observations from a re-analysis of the deposited data

Results flagged for a closer look

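Of 40 checks, each of 1 member in 1 group, 4 found the highest or lowest animal set apart from the rest of its group by Dixon's criterion. Chance flags about 1 group in 20. In Btg1, female GnRH animal 10 was lowest at 10.69, with the next animal at 10.94, and without it the female difference was 0.26 (limma adjusted p = 0.0558). In Ier5, male GnRH animal 19 was lowest at 8.00, with the next at 8.41, and without it the male difference was 0.23. In Ier2, placebo male 13 was highest at 9.73, with the next at 9.17, and without it the male difference was 0.38. In Zfp36, placebo female 2 was highest at 9.67, with the next at 9.33, and without it the female difference was 0.20. None of these 4 differences passed the threshold with or without the animal named.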

How the results depend on the processing

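Btg1 passed the threshold in males and averaged over the sexes in all 25 fits that left out 1 animal (limma adjusted p up to 0.0274 and 0.00242) and under every other setting except males without animals 18 and 21 (adjusted p = 0.0592). Ier5l passed averaged in 9 of the 25 fits, was lost without the filter on low values (adjusted p = 0.0819) and was not tested at a mean of at least 6; in males it passed once, without GnRH animal 19 (adjusted p = 0.0432). Members called averaged over the sexes thus numbered 1 without the filter and at a mean of at least 6, and 1 to 2 when 1 animal was left out, and members called in males numbered 0 without animals 18 and 21 and 1 to 2 when 1 animal was left out.

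Counts over all genes moved more. Genes called in females numbered 7 without the filter, 62 with library weights, 32 without animals 18 and 21 and 4 to 67 when 1 animal was left out. In males they numbered 42, 239, 38 and 46 to 153, and averaged over the sexes 942 with library weights. Medians of all genes moved by under 0.01 with the scaling.

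Signs turned for estimates near 0. Zfp36l1 was -0.074 in females and 0.011 in the sex difference of effects with library weights. Without animals 18 and 21, Btg2 was -0.0069 averaged, and the sex difference of effects was -0.086 for Ier3 and -0.068 for Csrnp1. Leaving out 1 animal gave Zfp36l1 -0.071 to 0.065 in females, -0.088 to 0.017 in males, -0.057 to 0.011 averaged and -0.11 to 0.028 in the sex difference of effects, Zfp36l2 -0.13 to 0.052 in males and Ier2 -0.00059 to 0.21 in females. The sex difference of effects ran from -0.023 to 0.099 for Ier3 and -0.16 to 0.019 for Ier5. Males minus females within placebo ran from -0.012 to 0.051 for Btg1, -0.0033 to 0.24 for Csrnp1, -0.0042 to 0.10 for Ier3 and -0.10 to 0.070 for Ier5. The causes were not tested. No paired analysis was possible because no number is shared between groups.

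Limits: the values are shrunken and carry no depth, so differences of low genes such as Ier5l are understated and their counting error is unknown. A single time after the last dose was sampled, in whole tissue, and groups of 5 to 8 animals leave wide intervals for Csrnp1, Zfp36 and Btg2.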
